A study of Mus musculus with 2 samples.

Results

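The tumour necrosis factor (TNF) superfamily of ligands and the matching superfamily of receptors were described in peeled mouse epidermis on 2 one-colour arrays. The members were taken by symbol: genes whose name starts with Tnfsf or Tnfrsf and a number, and the genes of these families that carry other names (Tnf, Lta, Ltb, Ltbr, Fas, Fasl, Cd40, Cd40lg, Cd27, Cd70, Ngfr, Eda, Edar and Eda2r). The rule covered 46 genes of the RefSeq gene table. Probes were matched for 43 of them, 17 ligands and 26 receptors, through 56 probes, out of 18206 named genes on the array. Edar, Tnfsf13 and Tnfsf13os had no matched probe and were not analysed here.

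One array held RNA of an Nfkbiz flox/flox mouse genotype, the control, and the other RNA of the Nfkbiz flox/flox; K5-cre genotype, called the knockout array below. Both carry the floxed Nfkbiz allele, which encodes the nuclear IκB protein IκBζ, a cofactor that modulates transcription by NF-κB. Cre comes from the keratin 5 promoter, active in basal keratinocytes, whose descendants inherit the deletion. By that design, T cells, Langerhans cells, melanocytes and other cells of the epidermis in which the promoter is silent keep the gene. Which cells lost it in these samples was not measured. Both tissues were taken in the steady state, with no further treatment named. Age, and how many mice gave each RNA, are not given in the sources used here. With 1 array per genotype there was no spread between replicates and nothing was tested. Differences were called by size, at 2-fold, and the error after ± is the standard error of a log2 difference from the error model of the scanner software, which covers technical error within these arrays only.

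TNF family ligands are mostly trimeric membrane proteins, some of them shed, and their receptors fall into those with a cytoplasmic death domain, those that bind TRAF adaptors, and decoys that bind a ligand without passing a signal. In skin, TNF and the lymphotoxins switch on NF-κB in keratinocytes, the death receptors for Fas ligand and TRAIL can start apoptosis, RANK ligand from keratinocytes sustains Langerhans cells, ectodysplasin directs the growth of hair follicles, and several other pairs costimulate T cells.

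Each signal was divided by the 75th percentile of its own array before a difference was taken, 194 for the control and 226 for the knockout. No spot was saturated, and 56.2% and 56.3% of probes were well above background. The labelled tissue was checked against keratinocyte markers: all 10 matched markers of 11 listed were measured on both arrays, with none 2-fold apart, and their summed scaled signal was 1805 on the control and 1631 on the knockout array. Nfkbiz itself had signals of 3100 and 1760 (log2 difference -1.04 ± 0.20), from 1 probe. Whether that probe lies in the deleted part is unknown here, so its value is no check of the deletion. The summed scaled signals of red blood cell markers (94.6 and 9.44), skeletal muscle markers (5.80 and 1.60) and melanocyte markers (9.20 and 2.30) were lower on the knockout array, and their part in the results was not tested. Those of dermal fibroblast markers were 13.1 and 11.3 (5 of 7 measured, none 2-fold apart) and those of mast cell markers 0.415 and 0.342 (2 of 6 measured, none 2-fold apart), and none of the 5 matched neutrophil markers was measured. Nfkbiz was at -0.69 under median scaling, which moves every gene up together and takes the median of all measured genes from -0.04 to 0.31.

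Of the 43 genes, 23 were measured on both arrays, meaning well above background and not saturated on each. Among these, the knockout array had Ltbr, Tnf, Tnfrsf11b and Ltb at 2-fold higher or more, and Tnfrsf10b and Tnfrsf23 at 2-fold lower or more. Tnfsf18, measured on the control array alone, was 40.4-fold lower by its bound (-5.34 in log2). With normexp that bound was -3.17. The 4 higher members made up 17.4% of the 23, where 3.03% of all 12396 measured genes were at least 2-fold higher. The 2 lower members made up 8.70%, where 4.39% of all genes were lower. Either way, 26.1% of the members and 7.42% of all genes were at least 2-fold apart. The median difference of the 23 members was -0.02, beside -0.04 over all measured genes, with 11 members above 0 and 12 below. Median scaling gave 6 higher members and 1 lower, where it put 8.28% of all genes higher and 2.27% lower. Quantile normalization gave 5 and 1 (3.7% and 3.7% of all genes), cyclic loess 5 and 1 (3.4% and 3.88%), and normexp background correction 3 and 1 (1.48% and 1.85%). The 3 with normexp were Ltbr, Tnf and Tnfrsf19, while Ltb (0.93) and Tnfrsf11b (0.998) were under 2-fold.

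**Figure D1:**
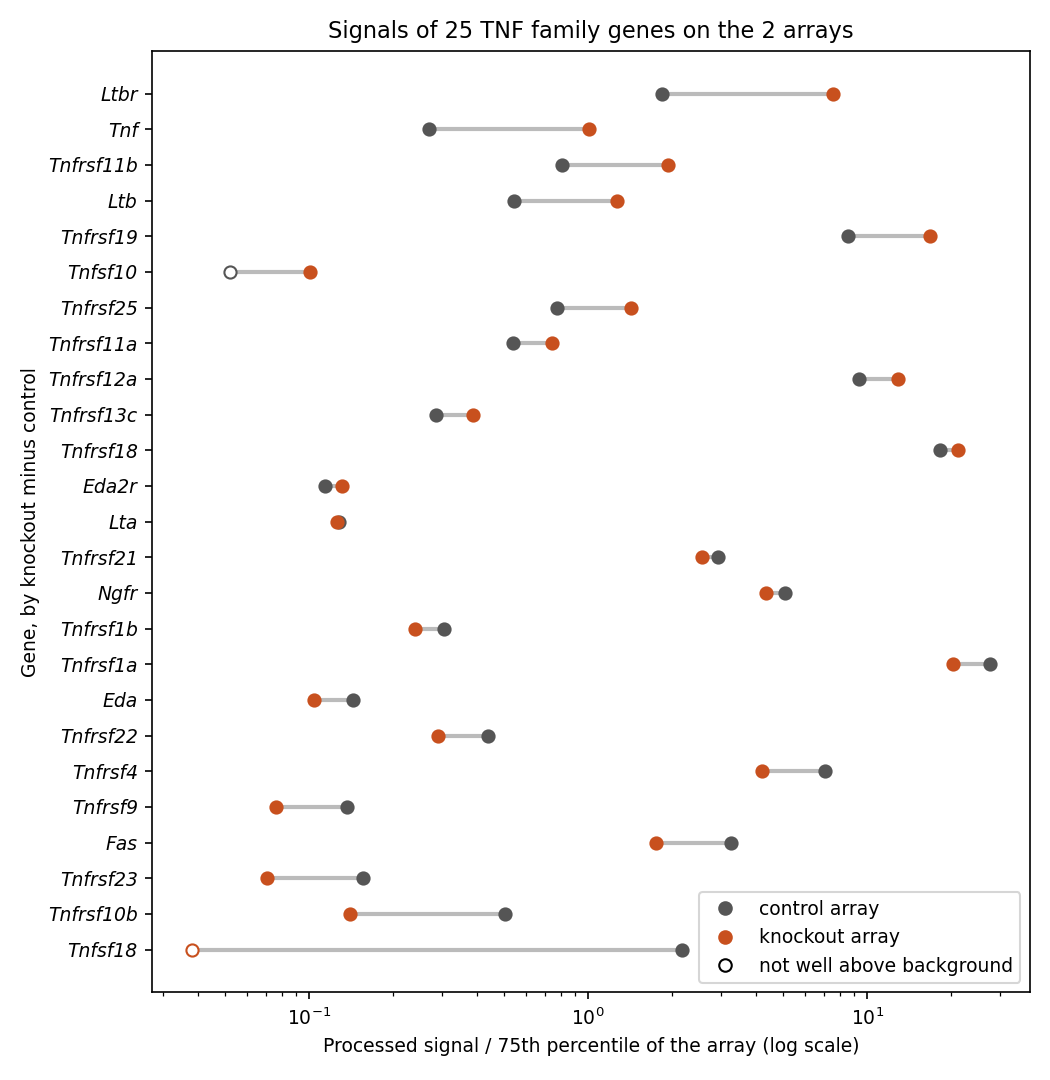
Processed signal of each of the 25 members measured on at least 1 array, divided by the 75th percentile of its array (log axis), for the control array (grey) and the knockout array (orange), ordered by their difference. Open circles mark a signal not well above background. Ltbr and Tnf have their knockout value furthest to the right of the control value, and Tnfsf18 has a control signal of 420 and a knockout signal of 8.60 before scaling. Levels of different genes come from different probes and are not comparable.

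Most of the other members had small differences or no measurable signal. Of the 43, 18 were not well above background on either array (41.9%), compared with 26% of all named genes. The share was 11 of 17 for the ligands (64.7%) and 7 of 26 for the receptors (26.9%). The 11 ligands were Cd40lg, Cd70, Fasl, Tnfsf4, Tnfsf8, Tnfsf9, Tnfsf11, Tnfsf12, Tnfsf13b, Tnfsf14 and Tnfsf15. The 7 receptors were Cd27, Cd40, Tnfrsf8, Tnfrsf13b, Tnfrsf14, Tnfrsf17 and Tnfrsf26. For these genes the arrays give no level and no direction.

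Tnf, which encodes the founding ligand of the family, had signals of 52.2 (control) and 227 (knockout). Its probe was spotted 10 times on each array, with a lowest, median and highest signal of 44.4, 51.7 and 60.1 for the control and of 202, 230 and 242 for the knockout. All knockout spots were above all control spots. The difference was 1.90 ± 0.22, or 3.73-fold, at place 51 from the highest of 12396 genes. It was at least 2-fold under each of the 5 other scalings and value sources tried, from 1.10 with normexp to 2.25 with median scaling.

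Ltb encodes lymphotoxin beta, the membrane-bound partner that anchors lymphotoxin alpha at the cell surface. Its single spot read 105 (control) and 286 (knockout), a difference of 1.23 ± 0.21 (2.34-fold). With normexp it was 0.93, below 2-fold. Lta, which encodes lymphotoxin alpha itself, did not share that difference. Its spots ran from 21.0 to 30.9 (9 spots, control) and from 23.4 to 30.7 (10 spots, knockout). They overlapped, and the difference was -0.02 ± 0.31, with a sign that changed between scalings (-0.20 to 0.32).

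Ltbr, the receptor of the membrane-bound lymphotoxin complex and of the ligand LIGHT, acts through the alternative NF-κB pathway. It had the highest difference of the 23 members. Its signal was 356 (control) and 1700 (knockout), a difference of 2.04 ± 0.20 or 4.10-fold, at place 45 of 12396 genes. It stayed between 1.94 and 2.38 under the 6 scalings and value sources. None of the 25 measured neighbours within 3 rows and 3 columns of its spot was 2-fold higher. In this pair both the ligand, Ltb, and the receptor, Ltbr, were thus past 2-fold, while the other ligand of the receptor, Tnfsf14 (LIGHT), was not well above background on either.

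Tnf and Ltb are made by lymphocytes and macrophages as well as by keratinocytes. Of the 11 T-cell markers listed, 10 were measured on both arrays. Cd247, Itgae (1.07) and Cd69 (1.79) were past 2-fold higher, Xcl1 (-1.03) past 2-fold lower, and Klrk1 was not well above background on either. The median of the list was 0.60, and its summed scaled signal was 19.8 for the control and 20.4 for the knockout. Among Langerhans and dendritic cell markers, 7 of 8 matched were measured, with a median of 0.53 and with Cd207 at least 2-fold higher, at 1.65, and the summed scaled signal was 61.2 and 92.3. Zbtb46 was not well above background. Of 6 matched macrophage markers 3 were measured: C1qa at -1.12, C1qb at -0.19 and Adgre1, the brightest (402 and 653), at 0.48. Mrc1, Lyz2 and Fcgr1 were not well above background, and the sums of the list were 2.67 and 3.33. The part of these cells in the differences of Tnf and Ltb was not tested. In bulk tissue, more cells of a type and more RNA per cell cannot be told apart.

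Lta, Tnf and Ltb lie side by side in the genome, in the order Ltb, Tnf, Lta with no other coding gene between them, and so offer a comparison within 1 locus. Ltbr lies near Tnfrsf1a, with 1 coding gene between them. The 250 bases before the annotated start of each, 5′ to 3′ along the gene, are shown from RefSeq (build GRCm38.p6) because Ltb, Tnf and Ltbr were at least 2-fold higher while Lta, the neighbour of Tnf, was not. Capitals mark a match to the NF-κB motif, spelled GGGA followed by NNNN (any bases) and CC, searched on both strands, so that the opposite strand reads GG, NNNN and TCCC.
Ltb, chr17:35194257-35194506, plus strand: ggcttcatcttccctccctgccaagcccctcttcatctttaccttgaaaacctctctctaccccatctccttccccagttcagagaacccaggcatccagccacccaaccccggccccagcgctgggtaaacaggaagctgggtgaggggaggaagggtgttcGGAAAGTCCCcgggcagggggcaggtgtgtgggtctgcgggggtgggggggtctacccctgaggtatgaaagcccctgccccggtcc
Tnf, chr17:35202008-35202257, minus strand: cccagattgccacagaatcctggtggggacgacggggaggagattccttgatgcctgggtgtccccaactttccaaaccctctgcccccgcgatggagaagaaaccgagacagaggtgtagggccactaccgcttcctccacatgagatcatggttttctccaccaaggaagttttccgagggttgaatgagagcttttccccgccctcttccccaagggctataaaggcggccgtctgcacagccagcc
Lta, chr17:35205352-35205601, minus strand: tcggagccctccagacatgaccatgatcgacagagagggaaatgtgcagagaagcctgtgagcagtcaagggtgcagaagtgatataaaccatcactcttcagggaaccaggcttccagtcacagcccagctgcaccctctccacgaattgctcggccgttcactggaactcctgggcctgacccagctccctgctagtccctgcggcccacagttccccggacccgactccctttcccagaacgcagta
Ltbr, chr6:125313886-125314135, minus strand: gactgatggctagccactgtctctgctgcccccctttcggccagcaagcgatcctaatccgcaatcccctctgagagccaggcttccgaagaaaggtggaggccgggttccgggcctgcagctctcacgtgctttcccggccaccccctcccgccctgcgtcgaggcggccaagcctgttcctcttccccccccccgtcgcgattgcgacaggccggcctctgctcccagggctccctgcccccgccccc

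The Ltb sequence held 1 match, GGAAAGTCCC, 87 to 78 bases before the start and on the opposite strand. The Tnf, Lta and Ltbr windows held none of these letters. Over the family, promoters were given for 35 genes (39 windows, since some genes have several starts), and 9 windows held a match (23.1%), compared with 5793 of all 32851 promoters of the same length (17.6%). The genes with a match were Ltb, Eda2r, Tnfrsf25 and Tnfrsf9, which were measured on both arrays, and Tnfrsf8, Tnfrsf13b, Tnfrsf14, Tnfsf11 and Tnfsf14, which were not well above background. The measured ones lay on either side of 0, with Ltb at 1.23, Tnfrsf25 at 0.88, Eda2r at 0.21 and Tnfrsf9 at -0.84. In Tnfrsf9 the match, GGGATTTCCC, reads the same on both strands. A match is a description of letters and not a bound site.

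The receptors of Tnf were not higher with their ligand. Tnfrsf1a, the death domain receptor that most cells carry, had spots from 4950 to 5840 (control) and from 4230 to 5020 (knockout), a difference of -0.43 ± 0.20 that was at -0.09 under median scaling. After division by the 75th percentile the spots of the 2 arrays did not overlap, while the unscaled signals did. Tnfrsf1b, the inducible receptor without a death domain, was read by 2 probes that differed. The brighter one had signals of 58.8 and 54.0 (-0.34 ± 0.22, with a sign that depended on scaling). The other, spotted 10 times, ran from 33.2 to 46.1 (control) and from 3.62 to 15.9 (knockout), where 3 of its 10 spots were well above background. Its plain difference was -2.37 ± 0.64, past 2-fold lower, and its spots did not overlap between the arrays. The probes disagree in size, and the gene is reported as uncertain for that reason. Its place within 2-fold in the counts rests on the brighter probe.

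**Figure D2:**
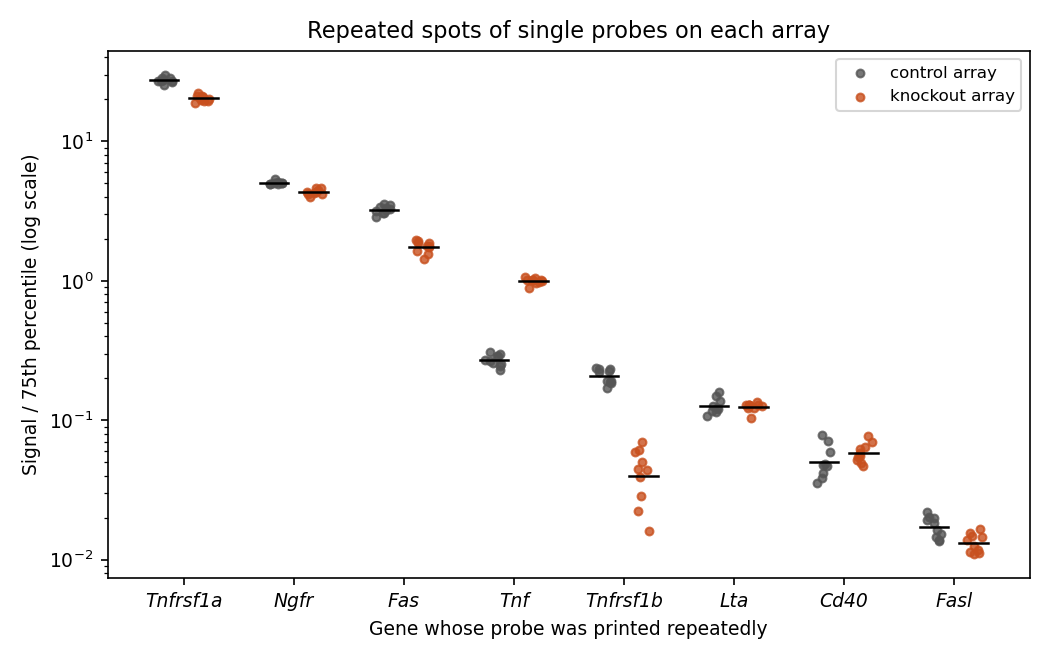
Signals divided by the 75th percentile of the array (log axis) for the 8 members with a probe spotted repeatedly, with 8 to 10 spots per array after removal of marked spots; points are spots and bars are means of the log values. The Tnf spots of the knockout array (unscaled 202 to 242) all lie above those of the control array (44.4 to 60.1). The Fas, Tnfrsf1a, Tnfrsf1b and Ngfr spots lie lower on the knockout array, where most Tnfrsf1b spots were not well above background. The Lta, Cd40 and Fasl spots overlap.

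Of the death receptors, the TRAIL receptor was past 2-fold lower. Tnfrsf10b, the mouse receptor through which TRAIL starts apoptosis, had signals of 97.5 and 31.7, a difference of -1.84 ± 0.24 (3.58-fold lower), at place 111 from the lowest of 12396 genes. Its other bright probe read 60.5 on the control array and was not well above background on the knockout array, at 11.7, and a further probe was dim on both. The gene was at least 2-fold lower under all 6 scalings and value sources, from -1.85 to -1.03. Of 25 measured neighbouring probes, 4 were 2-fold lower as well, with a neighbourhood median of -0.16.

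Fas, the receptor of Fas ligand, had 10 spots from 560 to 693 (control) and 10 from 327 to 445 (knockout). The spots did not overlap, and the difference was -0.89 ± 0.20 (1.85-fold lower), just under the threshold. Its other probe, annotated to another transcript, was at -0.32. The ligand, Fasl, was not well above background. Tnfrsf21, also called DR6, had signals of 568 and 576 and Ngfr, the low-affinity neurotrophin receptor, 983 and 979. Their differences were -0.20 ± 0.20 and -0.23 ± 0.20, and both changed sign under median scaling, to 0.15 and 0.12.

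Tnfrsf22 and Tnfrsf23 are decoy receptors of TRAIL that lie side by side with Tnfrsf26. Tnfrsf11b, described below with RANK, is also paired with TRAIL and was higher, at 1.26 ± 0.21. Tnfrsf23 had signals of 30.2 and 16.0, a difference of -1.14 ± 0.34 (2.20-fold lower). It was the least certain call, since both signals were near the lowest signal well above background (12.7 and 12.1), and the difference was -0.79 under median scaling, -0.84 and -0.85 under quantile normalization and loess, and -0.57 under normexp. Tnfrsf22 was at -0.60 ± 0.23, with signals of 85.0 and 65.3, and Tnfrsf26 was not well above background. These 3 genes are near copies of one another, and whether a probe reads more than 1 of them was not tested. Tnfsf10, the gene of TRAIL itself, was measured on the knockout array alone, at 22.7 against 10.1 on the control array. By its bound Tnfsf10 was 1.53-fold higher, under the threshold, and the bound was at -0.05 with normexp. Of all genes above background for the knockout only, 17.3% had a bound of 2-fold higher or more.

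Tnfsf18 encodes GITR ligand, a costimulator of T cells carried by antigen-presenting cells and endothelium, among other cells. Its single spot read 420 (control) and 8.60 (knockout), where it was not well above background. Against the lowest signal well above background on the knockout array, 12.1, the difference was 40.4-fold (-5.34 in log2). That floor is no strict limit, since the brighter knockout signal of Tnfrsf26, 15.5, was not well above background. The bound was at least 2-fold under all 6 scalings and value sources, and smallest under normexp, at -3.17. Of the 489 genes measured on the control array alone, 38% were at least 2-fold lower by their bound. The spot was not near a non-uniform one, and of 26 measured neighbours 2 were 2-fold lower, with a median of -0.15. Only 1 probe reads the gene here, so no further probe bears on it.

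Tnfrsf18 encodes GITR, the receptor of that ligand. It had signals of 3530 and 4780 and a difference of 0.22 ± 0.20, so it was within 2-fold while its ligand was not. Endothelial markers were mixed. Vwf was at -2.40, Emcn was 5.35-fold lower by its bound and Tek 1.30-fold higher by its bound. Pecam1, Cdh5 and Kdr were not well above background on either array, and the summed scaled signal of the list was 1.66 and 0.37. The sums of the antigen-presenting cell markers were higher on the knockout array, 61.2 and 92.3 for Langerhans and other dendritic cells and 2.67 and 3.33 for macrophages. The part of any of these cells, or of keratinocytes, in the value of Tnfsf18 was not tested.

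The receptors that costimulate T cells lay on both sides of 0, none past 2-fold. Tnfrsf4, also called OX40, had signals of 1370 and 948 (-0.75 ± 0.20), and it lies next to Tnfrsf18 in the genome. Tnfrsf9, also called CD137, had 26.5 and 17.2 (-0.84 ± 0.40), close to background, with its other probe dim on both arrays. Tnfrsf25, the receptor of TL1A, lay the other way, with 150 and 322 (0.88 ± 0.21). It passed 2-fold under median scaling alone, at 1.23. The ligands of Tnfrsf4, Tnfrsf9 and Tnfrsf25 were not well above background on either array. Cd40 had spots from 6.88 to 15.1 and from 10.6 to 17.3, with 0 of 9 and 3 of 10 well above background, and its ligand Cd40lg was dim on both arrays.

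Of the RANK receptors, the decoy was past 2-fold. Tnfrsf11b encodes osteoprotegerin, the secreted decoy that traps RANK ligand and is also paired with TRAIL. It had signals of 156 and 435, a difference of 1.26 ± 0.21 (2.39-fold) that lay up to 1.61 under the 6 settings and was 0.998, just under 2-fold, with normexp. Tnfrsf11a, the signalling receptor RANK, had 104 and 168 (0.47 ± 0.21) at its brighter probe and was at -0.18 at the dimmer one. Their ligand Tnfsf11, RANK ligand, was not well above background at either of its 2 probes. RANK is carried by Langerhans cells, whose marker values are given above with Tnf, and their part in the value of Tnfrsf11a was not tested. Tnfrsf12a, the TWEAK receptor Fn14, had 1810 and 2910 (0.46 ± 0.20), and Tnfrsf13c, a receptor of BAFF on B cells, had 55.1 and 87.4 (0.45 ± 0.22). Of 4 matched B-cell and plasma cell markers 2 were measured, with summed scaled signals of 0.378 and 0.382 over the list, and Cd79b and Jchain were dim on both arrays.

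The members tied to the hair follicle were split. Tnfrsf19, also called Troy, a relative of the ectodysplasin receptors, had signals of 1660 and 3810, a difference of 0.98 ± 0.20 (1.97-fold). It passed 2-fold barely with cyclic loess, and also with quantiles (1.02), normexp (1.05) and median scaling (1.33). Eda, ectodysplasin A, had 27.8 and 23.5 (-0.46 ± 0.31). Eda2r, the X-linked receptor of one of its isoforms, had 22.1 and 29.7 (0.21 ± 0.37) and changed sign under normexp, and 2 of its 3 probes were dim on both arrays. Of 7 matched hair follicle stem cell markers, 6 were measured on both arrays. Cd34, Lhx2 and Plet1 were at least 2-fold lower, and the summed scaled signal of the list was 385 and 234. Lgr5, measured on the control array alone, was 4.54-fold lower (-2.18 ± 0.39), a plain difference and no lower limit. Tnfrsf19 lay on the other side of 0 from these markers. Their part in its value was not tested.

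**Figure D3:**
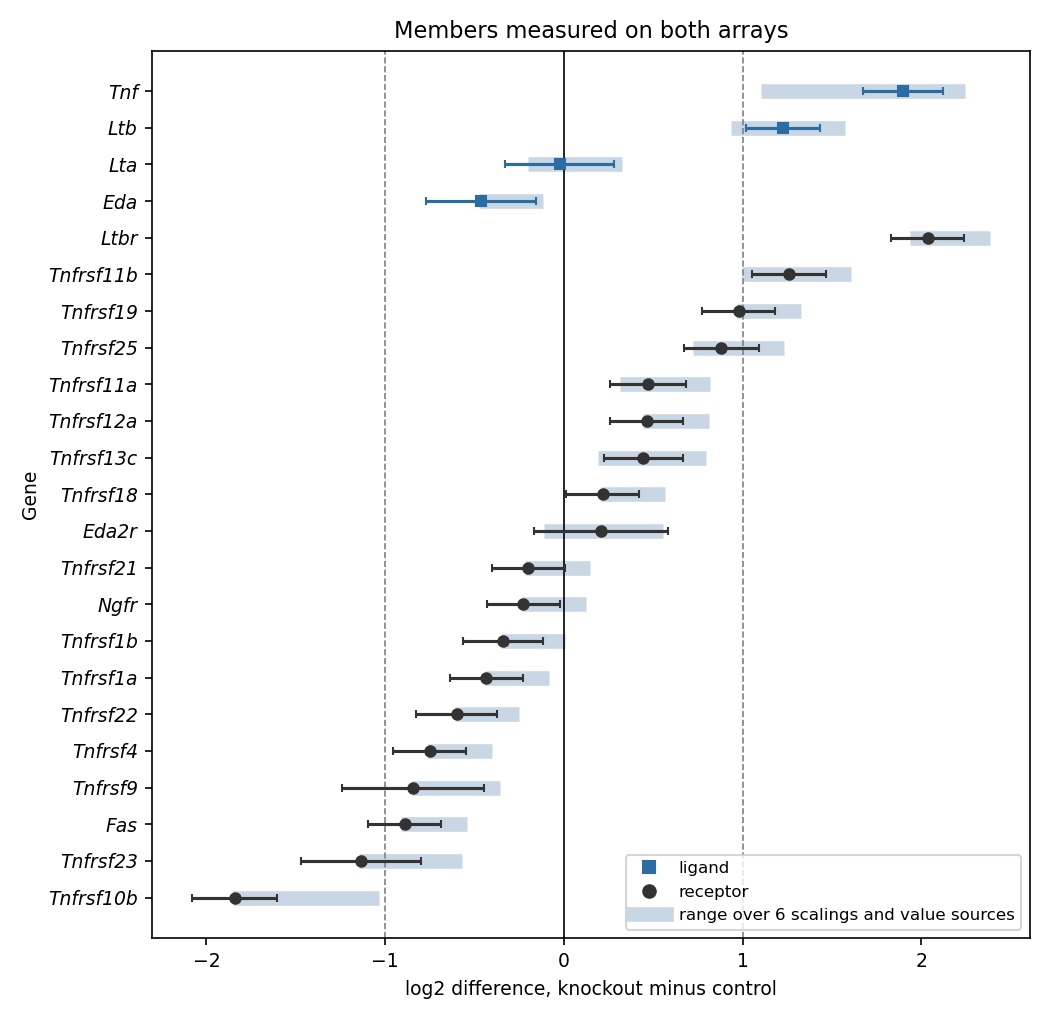
Log2 difference (knockout minus control) of the 23 members measured on both arrays, with ligands as squares and receptors as circles; whiskers are the standard error of the scanner software's error model, pale bars the range over the 6 scalings and value sources, and dashed lines mark 2-fold. Ltbr, Tnf and Tnfrsf10b stay past 2-fold over their whole range, and the bars of 5 members cross 0.

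Of the 23 members, 18 had 1 sign over the 6 scalings and value sources, with 10 above 0 and 8 below 0 throughout. The 5 others were Lta, Eda2r, Ngfr, Tnfrsf1b and Tnfrsf21. By mean signal, 10 members were among the 4132 dimmest measured genes (1 higher, 2 lower), 7 among the middle 4132 (3 higher) and 6 among the brightest 4132 (none 2-fold apart). Over all genes, 3.97% and 5.91% were 2-fold higher and lower among the dimmest, 3.32% and 4.14% in the middle, and 1.82% and 3.12% among the brightest.

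**Figure D4:**
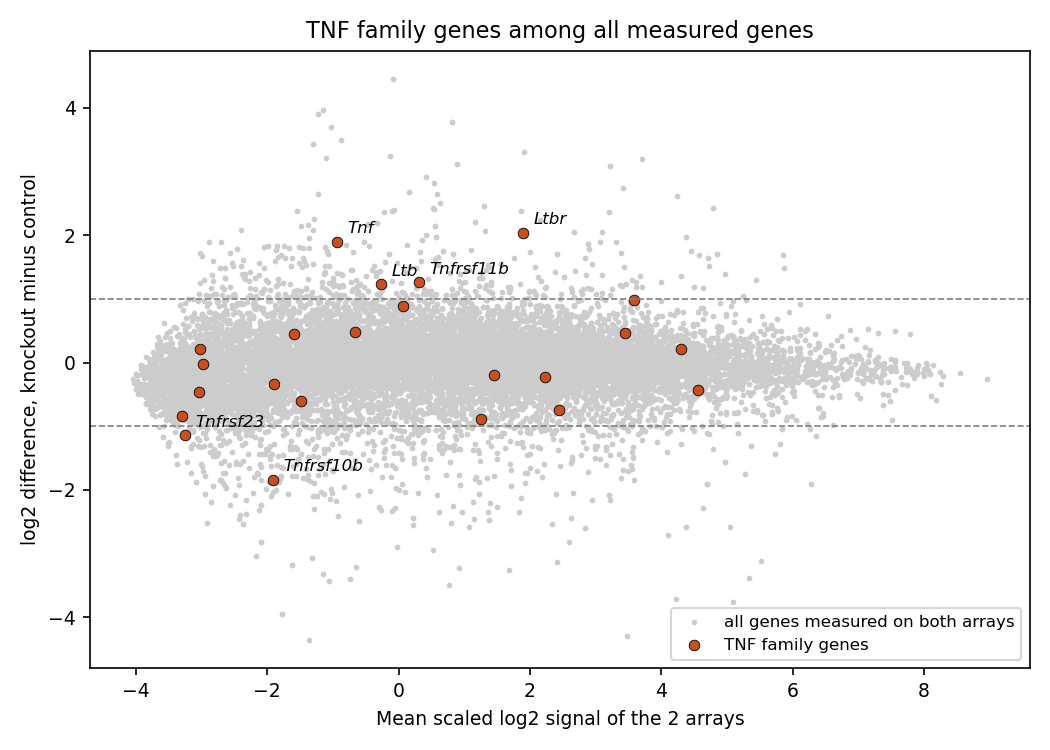
Log2 difference (knockout minus control) against the mean scaled log2 signal of the 2 arrays for the 12396 genes measured on both (grey) and the 23 members (orange); dashed lines mark 2-fold. Ltbr (2.04) and Tnf (1.90) lie above the upper dashed line and Tnfrsf10b (-1.84) below the lower one, while all genes reach from -4.35 to 4.45.

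By ligand and receptor, 30 pairs were listed for this family. Both partners were measured on both arrays in 6 pairs: Tnf and Lta with Tnfrsf1a and with Tnfrsf1b, Ltb with Ltbr, and Eda with Eda2r. In the Ltb and Ltbr pair both partners were at least 2-fold higher. Tnf was higher while neither of its receptors was. In 9 pairs the receptor was measured on both arrays and the ligand was dim on both, which held for 8 ligands.

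Downstream of the receptors, all 23 listed receptor-proximal signalling genes were measured, with none 2-fold apart (median 0.13, from -0.90 to 0.98), where 7.42% of all genes were 2-fold apart. The 4 largest differences were those of the adaptor Traf6 (268 and 617, 0.98 ± 0.20), Traf4 (-0.90), the alternative pathway kinase Map3k14, also called NIK (469 and 307, -0.83 ± 0.20), and Tab2 (0.79, its other probe at -0.39). Another, dimmer Traf4 probe read 25.9 and 11.8 (-1.35) and was not well above background on the knockout array. The dimmer probe of the kinase gene Chuk, named after its value was seen, read 57.6 and 19.5 (-1.78), while its brighter probe was at -0.29. Median scaling put 4 of the 23 at least 2-fold higher, where it did so for 8.28% of all genes, and the list median was then 0.48 beside 0.31 over all genes.

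Among ubiquitin editors and brakes of the pathway, 1 of 11 was at least 2-fold lower and none higher, where 4.39% and 3.03% of all genes were. Tnfaip3, the gene of the inhibitor A20, had signals of 12600 and 5890 (-1.32 ± 0.20), and was at -0.97, under 2-fold, with median scaling. Rnf31, a subunit of the linear ubiquitin ligase, was at -0.82, with its other probe at -0.91, the A20-binding protein gene Tnip1 at -0.72 and the deubiquitinase gene Cyld at -0.67. Nfkbia, the classical IκB, lay the other way, at 0.72, with signals of 14100 and 27100. The list median was -0.12. Under median scaling it was 0.23, with 1 gene 2-fold higher and none lower, where 8.28% and 2.27% of all genes were.

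Genes known to be switched on by TNF lay on both sides of 0. Of 23 matched, 16 were measured on both arrays, 1 was at least 2-fold higher and 3 lower, with a median of -0.01 beside -0.04 over all genes, of which 3.03% were higher and 4.39% lower. Median scaling, which moves every gene up together, gave 4 higher and 2 lower with a median of 0.34. It put 8.28% of all genes higher and 2.27% lower. Normexp gave none higher and 3 lower, beside 1.48% and 1.85% of all genes. Tnfaip3, Birc3, Traf1 and Nfkbia are also in the lists above. Bcl3, another nuclear IκB, had signals of 2500 and 703 (-2.05 ± 0.20), and the chemokine gene Ccl20 588 and 202 (-1.76 ± 0.21). The protease gene Mmp9 had 63.5 and 159 (1.11 ± 0.22), with its other probe at 1.79, and was at 0.62 with normexp. Il6 was measured on the knockout array alone and was 3.90-fold higher (1.96 ± 0.42), from 14.9 to 67.8. Its dim signal was above the lowest signal well above background, so this value is the plain difference and no lower limit. Cxcl1 (2.76 and 24.9) and Csf2 (6.58 and 15.4) were also measured on the knockout array alone, 1.68-fold and 1.04-fold higher by their bounds. No gene of the list was measured on the control array alone. Of all genes measured on the knockout array alone, 17.3% had a bound of 2-fold higher or more. Cxcl10 was at 0.90, Nfkb2 at -0.89, the adhesion molecule gene Icam1 at 0.86 and Tnfaip2 at -0.74.

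All 7 matched genes for enzymes that shed or cleave the ligands, and their regulators, were measured. None was 2-fold apart, where 7.42% of all genes were, and the median was -0.17, or 0.18 under median scaling. Rhbdf2, which regulates the TNF sheddase, was at -0.46, the inhibitor Timp3 at -0.39, the intramembrane protease Sppl2b at 0.47 and Furin, the convertase that cuts ectodysplasin, at -0.53. Of 8 matched partners of ectodysplasin signalling, 4 were measured, none 2-fold apart, with a median of 0.28. Median scaling gave 0.63, with 1 of them 2-fold higher, where it put 8.28% of all genes higher. The adaptor gene Edaradd was at 0.43, Sostdc1 at 0.74, Lrp4 at 0.14 and Wnt10b at -0.12. Lef1 was measured on the control array alone and was 2.34-fold lower (-1.23 ± 0.41), a plain difference and no lower limit. Shh, Dkk4 and Fgf20 were dim on both arrays.

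**Figure D5:**
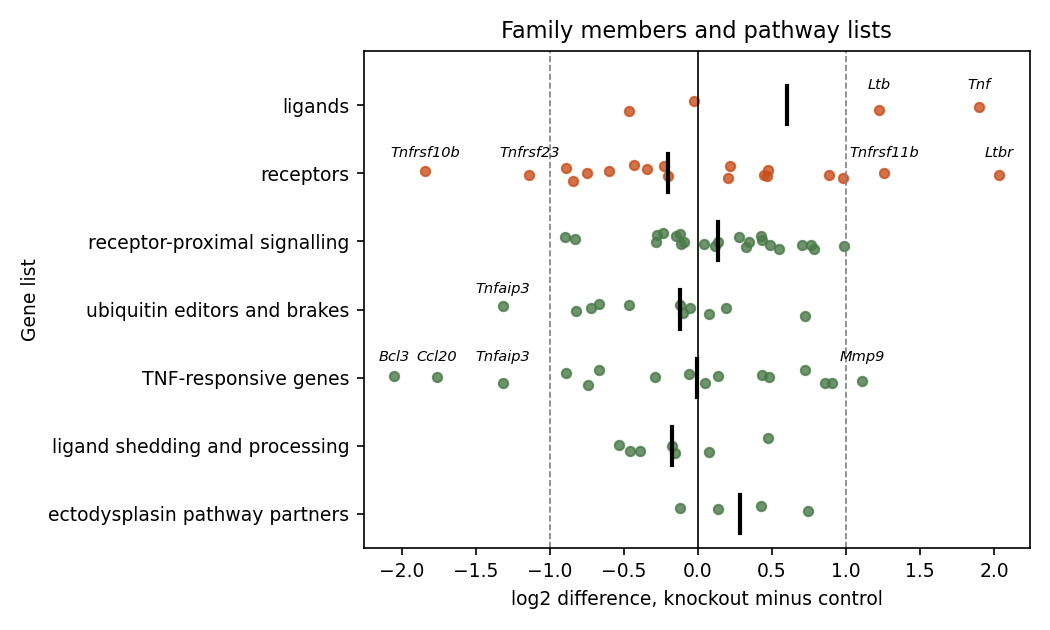
Log2 difference (knockout minus control) of the measured ligands and receptors of the family (orange) and of the 5 pathway lists (green); each point is a gene, black bars are list medians, and dashed lines mark 2-fold. The ligands and receptors reach from -1.84 to 2.04, while the receptor-proximal signalling genes stay between -0.90 and 0.98.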

How the data were processed

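RNA of peeled epidermis, 1 sample per genotype, was measured on 2 one-colour (Cy3) Agilent arrays. Per the file headers, the authors' scanner files were made with Agilent Feature Extraction 10.7.3.1 on a design annotated on mm9, and the deposited intensity of each spot is background-subtracted and detrended within the array, with flag columns (0 or 1; deposited as other values) for saturation, outliers and signal over background. The authors' deposited table of log2 values sums to 0 for every probe, so it was centred per probe. Set against the scanner values over 41134 probes, its between-array differences had r = 0.999994 (Pearson, across probes) and were offset by -0.01 in the median, which settles its log2 scale and direction. Its column medians were 0.14 and -0.14. Levels cannot be had from it.

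Control spots and spots marked as outliers were left out, log2 signals of a probe's spots were averaged, and the 75th percentile over probes was subtracted per array. A probe counted as well above background where most of its spots were, a rule set after seeing the data in place of any spot. Of 41134 probes, 26662 (64.8%) were named by RefSeq accession through RefSeq's gene table (GRCm38.p6), from which only names and gene order were taken. Of several probes, the one brightest on average stands for the gene. A gene dim on 1 array has a bound, its bright signal against the higher of the dim signal and the lowest signal well above background. Some signals brighter than that lowest one were not well above background, so a bound is no strict limit. Where the dim signal is the higher, the bound equals the plain difference and is no lower limit. No test was made. All members are named, with Nfkbiz and the 2-fold members and up to 4 others of each pathway list. Some list genes dim on 1 or both arrays are named beside these. Members and lists were chosen with earlier results of these data known. The calling code was tested on simulated data. Python 3.11.15, numpy 2.4.6, pandas 2.3.3, matplotlib 3.10.9, R 4.3.3 and limma 3.58.1 (quantile, cyclic loess, normexp with an offset of 50) were used. Normexp was fitted on median spot signals without spots marked as non-uniform, chosen after seeing that 1 array could not be fitted with them. The precision is limited by the number of arrays. The values of 1 marker list are not reported here.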

Additional observations from a re-analysis of the deposited data

How the results depend on the processing

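The counts of 4 members at least 2-fold higher and 2 lower held with the mean over measured probes, the authors' deposited table, and without probes near a non-uniform spot. With no filter on background or with members measured on at least 1 array, 3 were lower, within 1.5 times. With normexp, cyclic loess, quantile normalization or median scaling, 1 was lower, because Tnfrsf23 was under 2-fold. At 1.5-fold 6 were higher and 6 lower, beside 10.1% and 13.2% of all genes, and at 3-fold 2 and 1, beside 0.855% and 1.52%. The median of the members, -0.02, was 0.32 under median scaling, 0.27 under quantile normalization and 0.22 under cyclic loess, where the median of all genes was 0.31, 0.03 and 0.01. In each of these the member median is the value of 1 dim gene, Lta, with an error of 0.31, so it is no measure of a family-wide shift. No called member changed sign under any alternative. No paired analysis was possible because the comparison holds a single array on each side. Members near background, such as Tnfrsf23 and Tnfrsf9, have the widest errors, and dim members have a bound or no level.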
